A study of Mus musculus with 9 samples.

Results

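RNA levels of 9 genes whose products link transcription by RNA polymerase II to the action of AID were compared in stimulated mouse B-lymphoma cells grown with valemetostat, tazemetostat or the solvent DMSO. The genes are Supt5, Supt6, Supt16, Exosc3, Exosc10, Paf1, Ctr9, Rtf1 and Ptbp2. They were taken by symbol from a table of 45361 gene identifiers. No cut-off on their values was used, but the list was chosen with earlier results of these data known. All 9 were found and all 9 passed the filter on low counts that left 12580 genes for testing. The cells were CH12F3, a mouse B-lymphoma line that switches from IgM to IgA in culture. All libraries, those with DMSO included, came from cells that lacked Ligase4 (Ligase4 KO) and had been given, for 24 h, a mix of TGF-β, IL-4 and anti-CD40. Of the 9 libraries 3 had valemetostat, which inhibits the histone methyltransferases EZH1 and EZH2, 3 had tazemetostat, which inhibits EZH2, and 3 had DMSO. The design asked how either inhibitor altered transcription in these cells. The labels give neither the doses nor the time on the inhibitor, do not say whether the knockout line was 1 clone, and do not say whether replicates were separate cultures. What the p-values measure is thus the scatter among these libraries, and that scatter may be technical.

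AID deaminates cytosine in single-stranded DNA, and in B cells it does so at immunoglobulin genes while they are transcribed, which starts class switching and somatic hypermutation. RNA polymerase II that pauses or stalls exposes such DNA, and the elongation factors that travel with the polymerase are known partners of AID. SUPT5 (SPT5) binds both the polymerase and AID, SUPT6 and the FACT subunit SUPT16 handle nucleosomes in front of and behind it, and PAF1, CTR9 and RTF1 belong to the PAF1 complex. The RNA exosome, of which EXOSC3 is a core subunit and EXOSC10 a nuclear 3′ to 5′ exoribonuclease, removes nascent RNA and gives AID access to the template strand. PTBP2 is an RNA-binding protein of the polypyrimidine tract family that has been described as an AID partner at switch regions.

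The libraries held between 34080504 and 46675110 counts, and the 9 genes had between 914 and 21882 counts in a library. The first principal component carried 57.8% of the variance of all tested genes and set the 6 inhibitor libraries (scores from 24.2 to 27.2) apart from the 3 DMSO libraries (-52.2 to -49.8). All 9 markers of B cells were above 1 TPM (a level corrected for transcript length and scaled to the same total in each library). Their summed level was 9540 to 9930 TPM with valemetostat, 9580 to 9780 TPM with tazemetostat and 8370 to 8890 TPM with DMSO. Most of this sum was Cd74 (5900 to 6940 TPM over the libraries) and Ighm (1620 to 2060 TPM). The 7 markers of T cells summed to 34.9 to 39.1 TPM with valemetostat, 31 to 34 TPM with tazemetostat and 30.8 to 35.4 TPM with DMSO, most of it Lck. Over the libraries Cd3d was between 0.03 and 7.11 TPM, Trac between 0.28 and 1.54 TPM and Cd3e between 0 and 0.44 TPM. By group mean, 2 of the 7 were above 1 TPM with valemetostat, 1 with tazemetostat and 3 with DMSO. The 6 myeloid markers summed to 12.9 to 14.5 TPM with valemetostat, 12.8 to 13.6 TPM with tazemetostat and 12.1 to 16.1 TPM with DMSO, most of it Csf1r. The 5 stromal and epithelial markers summed to at most 1.07 TPM, with Col1a2 at 0 counts in every library. The part of the higher summed level of B cell markers, carried mostly by Cd74 and Ighm, in the results on the 9 genes was not tested. In RNA from a whole culture, fewer cells of a kind and less RNA per cell cannot be told apart.

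On the length-corrected TPM scale, the order of the 9 genes was led by an exosome subunit and a FACT subunit. Over all 9 libraries Exosc3 averaged 133 ± 7.21 TPM (SD, n = 9) and Supt16 125 ± 9.53 TPM. These 2 overlapped, with Exosc3 between 124 and 148 TPM and Supt16 between 116 and 145 TPM. Supt5 followed at 72.8 ± 6.57 TPM, then Exosc10 at 60.7 ± 3.53 TPM, and the ranges of both stood apart from their neighbours. Supt6 at 43.1 ± 6.75 TPM, Paf1 at 41.8 ± 2.65 TPM and Ctr9 at 33.9 ± 1.8 TPM formed a middle group in which neighbours overlapped. Rtf1 at 23.4 ± 1.71 TPM and Ptbp2 at 16.8 ± 1.91 TPM were the lowest, and their ranges did not overlap. Supt6 had the widest spread of the 9 on this scale, with a coefficient of variation of 15.7%, and Ctr9 the narrowest, with 5.32%. The place of Supt6 in the order differed by group. It had 37.1 to 38.2 TPM with valemetostat, with Paf1 at 37 to 42.9 TPM there. With tazemetostat Supt6 had 36.8 to 42 TPM and Paf1 41.1 to 43.5 TPM. With DMSO, Supt6 lay above Paf1, at 47.7 to 54.6 TPM against 40.5 to 47 TPM.

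**Figure D1:**
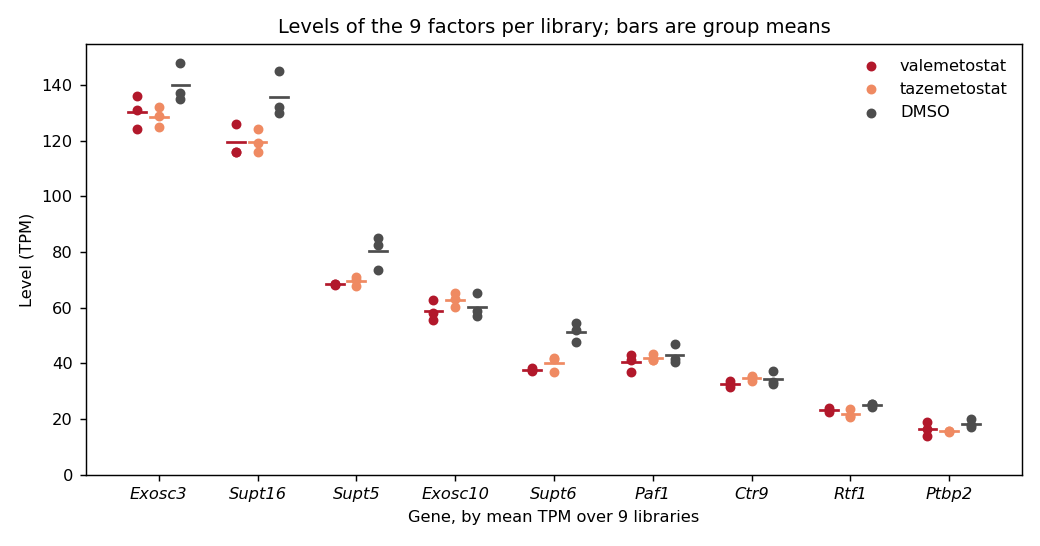
RNA level of each of the 9 genes (TPM, linear axis from 0) in the 9 libraries, with valemetostat, tazemetostat and DMSO libraries side by side and bars at the group means. Exosc3 and Supt16 lie highest, at means of 133 and 125 TPM over the libraries, and Ptbp2 lowest at 16.8 TPM, while Supt6 is the gene with the clearest step between the inhibitor groups and DMSO.

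The comparisons with DMSO were made on the deposited counts with edgeR's quasi-likelihood test, with calls made where p, after Benjamini-Hochberg adjustment over all tested genes, was under 0.05. With valemetostat, 2 of the 9 genes were called, Supt6 and Supt5, both lower. That is 0 called higher and 2 lower, where 20.5% of all tested genes were called higher, 18.7% lower and 39.2% in either direction. With tazemetostat, 4 of the 9 were called: Supt6 and Supt5 lower, and Exosc10 and Ctr9 higher. Of all tested genes, 19.9% were called higher with tazemetostat, 18.2% lower and 38.1% in either direction. The ranges of CPM (counts scaled to a common library size with TMM) did not overlap between inhibitor and DMSO libraries for 3 of the 9 genes with valemetostat and 5 with tazemetostat. Among all tested genes this held for 48.5% with valemetostat and 47.4% with tazemetostat. The share of the 9 that was called is thus no larger than or close to that of genes in general, and the count is no result about them as a group. The median log2 fold change of the 9 genes was -0.01 with valemetostat and -0.05 with tazemetostat. Over all tested genes it was 0.01 with valemetostat and 0 with tazemetostat. Without tazemetostat 1 or DMSO 1 the tazemetostat count dropped to 1 gene, and without tazemetostat 2 to 2 genes. Both comparisons use the same DMSO libraries, so their values stand side by side here and are not independent of each other.

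The scale of the values moved these counts. On the deposited log2(TPM + 1) values, limma-trend called 3 of the 9 genes lower with either inhibitor (Supt5, Supt6 and Supt16) and 0 higher. Over all tested genes that scale gave 1191 higher and 2117 lower with valemetostat, against 2577 higher and 2350 lower on counts. With tazemetostat it gave 1177 higher and 1946 lower, against 2508 higher and 2286 lower on counts. The median log2 fold change of all tested genes on that scale was -0.07 with either inhibitor.

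**Figure D2:**
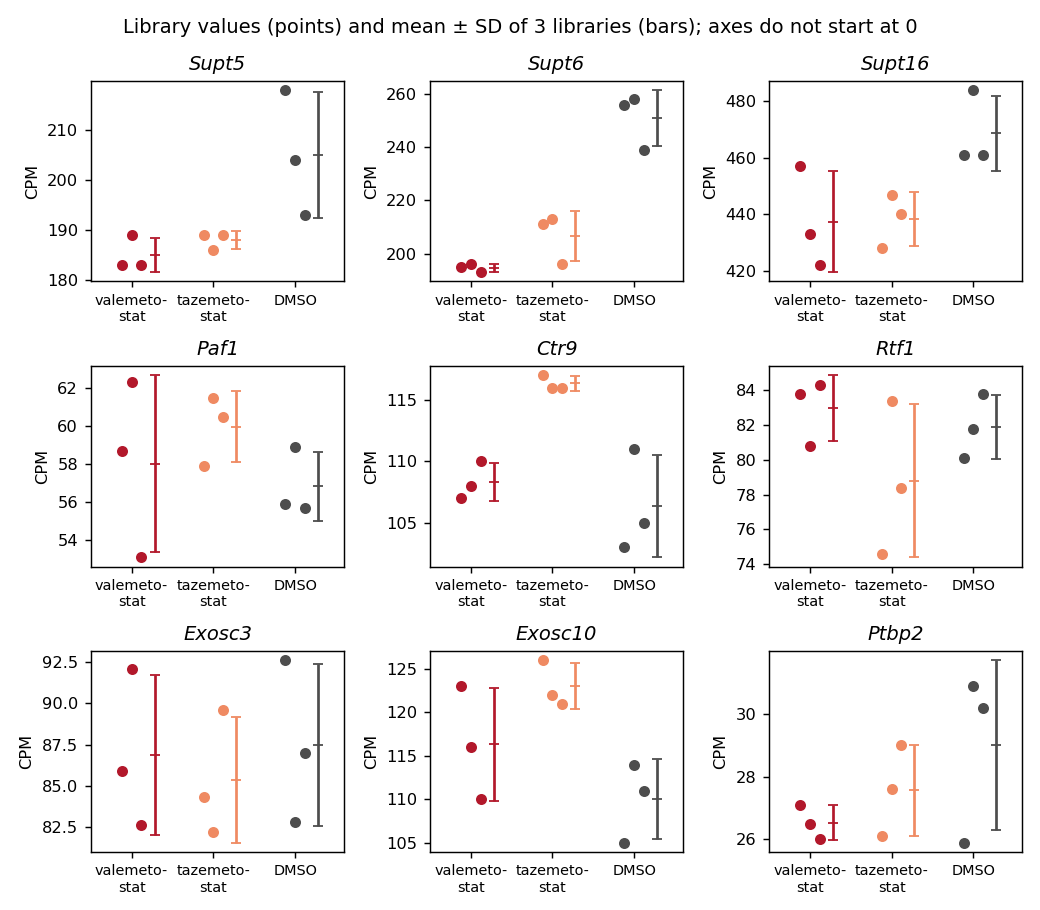
TMM-scaled CPM of each gene in each library (points) with the mean and SD of 3 libraries (bars), valemetostat and tazemetostat left of DMSO; the axes do not start at 0. The inhibitor libraries of Supt6 all lie between 193 and 213 CPM, below the 3 DMSO libraries at 239 to 258 CPM, while the groups of Exosc3, Paf1 and Rtf1 overlap.

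Supt6 had the largest change among the 9 genes, and it was lower with both inhibitors. Its product, SPT6, is a histone chaperone that rides with the elongating polymerase and has been tied to class switching in CH12 cells. Supt6 stood at 195, 196 and 193 CPM in the 3 valemetostat libraries, at 211, 213 and 196 CPM with tazemetostat, and at 256, 258 and 239 CPM with DMSO. Every inhibitor library was below every DMSO library. Supt6 fell by 22.5% with valemetostat, a log2 fold change of -0.37 ± 0.05 (SE; 95% interval -0.46 to -0.27; edgeR adjusted p = 3.88e-07). It fell by 17.8% with tazemetostat, a log2 fold change of -0.28 ± 0.04 (-0.37 to -0.19; edgeR adjusted p = 1.76e-05). Both calls held in 20 of 20 alternative analyses, with log2 fold changes from -0.44 to -0.26 for valemetostat and from -0.36 to -0.19 for tazemetostat. Of the exon bases of Supt6 in GENCODE M21, 3.41% overlap the gene Sdf2 on the opposite strand, and Sdf2 itself was not called (0.19 with valemetostat, edgeR adjusted p = 0.0705; 0.18 with tazemetostat, adjusted p = 0.0793).

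Supt5 was also lower with both inhibitors, by a smaller margin. Its product is the large subunit of DSIF, the factor that both holds the polymerase at the pause and, once phosphorylated, helps it elongate. Supt5 had 183, 189 and 183 CPM with valemetostat, 189, 186 and 189 CPM with tazemetostat, and 218, 204 and 193 CPM with DMSO. The groups did not overlap, but DMSO 3 lay only a few CPM above the highest inhibitor libraries and DMSO 1 well above. Supt5 fell by 9.95% with valemetostat, a log2 fold change of -0.15 ± 0.05 (-0.25 to -0.06; edgeR adjusted p = 0.0102), and fell by 8.47% with tazemetostat, -0.13 ± 0.05 (-0.22 to -0.03; edgeR adjusted p = 0.0294). Without DMSO 1 neither call held, with log2 fold changes of -0.10 for valemetostat (edgeR adjusted p = 0.0854) and -0.08 for tazemetostat (0.195). The tazemetostat call was also lost without DMSO 2 (edgeR adjusted p = 0.0556), tazemetostat 1 (0.0629), tazemetostat 2 (0.0941) or tazemetostat 3 (0.0647), and in a fit of those 2 groups alone (0.056). In GENCODE M21, 7.51% of the exon bases of Supt5 overlap Gm44709 on the opposite strand. Supt4a, which encodes the small subunit of DSIF, was not called, with log2 fold changes of 0.12 with valemetostat (edgeR adjusted p = 0.154) and 0.11 with tazemetostat (0.209). None of the 4 NELF genes, whose complex holds the paused polymerase together with DSIF, was called on counts, with log2 fold changes between -0.06 and 0.13 (edgeR, no adjusted p under 0.05 in either comparison). On counts Supt5 was the 1 gene called among the 6 of DSIF and NELF in each comparison. Of all tested genes, 39.2% were called with valemetostat and 38.1% with tazemetostat. Nelfe was called lower with tazemetostat with the length and GC offset (-0.13, edgeR adjusted p = 0.04) and by limma-trend on log2(TPM + 1) (-0.16, 0.0478).

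Supt16, the large subunit of the histone chaperone FACT, lay on the border of the test. It had 457, 433 and 422 CPM with valemetostat, 428, 447 and 440 CPM with tazemetostat, and 461, 484 and 461 CPM with DMSO. The inhibitor libraries lay below the DMSO libraries without overlap, with valemetostat 1 close to the lower DMSO values. The log2 fold change was -0.10 ± 0.04 with valemetostat (-0.19 to -0.01; edgeR adjusted p = 0.069) and -0.10 ± 0.04 with tazemetostat (-0.19 to -0.01; adjusted p = 0.0773). It passed the threshold in 3 other ways. DESeq2 gave an adjusted p of 0.0378 with valemetostat and 0.0488 with tazemetostat. Scaling by library totals gave an edgeR adjusted p of 0.0279 with valemetostat and 0.0197 with tazemetostat. With limma-trend on log2(TPM + 1) it was 0.0381 with valemetostat and 0.0449 with tazemetostat. On that scale the median log2 fold change of all tested genes was itself -0.07 with either inhibitor. With library totals that median was -0.01 with valemetostat and -0.03 with tazemetostat. The valemetostat comparison of Supt16 also passed without valemetostat 1 (edgeR adjusted p = 0.0435). In GENCODE M21, 21% of its exon bases overlap Rpgrip1 on the opposite strand. Ssrp1, the other FACT subunit, had log2 fold changes of -0.10 with valemetostat (edgeR adjusted p = 0.0565) and -0.02 with tazemetostat (0.718), and Iws1, a partner of SPT6, had 0.03 with valemetostat and -0.01 with tazemetostat. On counts, 1 of the 4 elongation histone chaperones, Supt6, was called in each comparison with DMSO. The share called among all tested genes was 39.2% with valemetostat and 38.1% with tazemetostat. With the length and GC offset Ssrp1 was also called lower with valemetostat (-0.14, edgeR adjusted p = 0.000721). Iws1 was then called higher, at 0.22 with valemetostat (edgeR adjusted p = 0.00113) and 0.13 with tazemetostat (0.0386), while its sign was negative on log2(TPM + 1) values (-0.08 with valemetostat and -0.10 with tazemetostat). By limma-trend on log2(TPM + 1), 3 of the 4 were lower with valemetostat (Ssrp1 with adjusted p = 0.00427) and 2 with tazemetostat.

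The PAF1 complex moves with the polymerase and is needed for marks of active transcription such as ubiquitylated histone H2B. Of its 3 genes among the 9, Ctr9 rose with tazemetostat and neither Paf1 nor Rtf1 was called. Ctr9, the scaffold subunit, had 107, 108 and 110 CPM with valemetostat, 117, 116 and 116 CPM with tazemetostat, and 103, 111 and 105 CPM with DMSO. The tazemetostat libraries lay above all others, and the valemetostat libraries fell inside the DMSO range. The log2 fold change was 0.03 ± 0.05 with valemetostat (-0.06 to 0.13; edgeR adjusted p = 0.615) and 0.13 ± 0.05 with tazemetostat (0.03 to 0.23; adjusted p = 0.0283). The tazemetostat call was lost with library totals (edgeR adjusted p = 0.0804), without DMSO 1 (0.0967), DMSO 3 (0.0646), tazemetostat 1 (0.0793) or tazemetostat 2 (0.0627), and by limma-trend on log2(TPM + 1), with a difference of 0.01 (adjusted p = 0.892). Paf1, which gives the complex its name, had 53.1 to 62.3 CPM with valemetostat, 57.9 to 61.5 CPM with tazemetostat and 55.7 to 58.9 CPM with DMSO. Rtf1, which stimulates H2B ubiquitylation, had 80.8 to 84.3 CPM with valemetostat, 74.6 to 83.4 CPM with tazemetostat and 80.1 to 83.8 CPM with DMSO. The groups of both genes overlapped. The 95% intervals with valemetostat reached from -0.10 to 0.16 for Paf1 (edgeR adjusted p = 0.726) and from -0.09 to 0.13 for Rtf1 (0.796), and those with tazemetostat from -0.05 to 0.20 for Paf1 (0.344) and from -0.16 to 0.05 for Rtf1 (0.441).

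Beyond these 3 genes the PAF1 complex showed no common direction. Cdc73, the parafibromin subunit, was lower with valemetostat at -0.25 ± 0.05 (edgeR adjusted p = 0.000156) and with tazemetostat at -0.21 ± 0.05 (adjusted p = 0.000894). With an offset for transcript length and GC content these values became 0.01 with valemetostat (edgeR adjusted p = 0.921) and -0.01 with tazemetostat (0.907). Wdr61, a subunit shared with the Ski complex, was higher with valemetostat at 0.16 (edgeR adjusted p = 0.0164) and was not called with tazemetostat at 0.10 (0.128); limma-trend on log2(TPM + 1) did not call it with valemetostat (adjusted p = 0.162). Leo1 was not called, at -0.03 with valemetostat and -0.01 with tazemetostat. Of the 6 subunits, 1 was called higher and 1 lower in each comparison with DMSO, and the median log2 fold change was 0.03 in both. Among all tested genes, 20.5% were called higher and 18.7% lower with valemetostat, and 19.9% higher and 18.2% lower with tazemetostat. The counts are thus no result about the complex as a group. By limma-trend on log2(TPM + 1), 0 were called in either direction with valemetostat, and 0 higher and 1 lower with tazemetostat.

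Of the exosome genes among the 9, Exosc3 was not called on counts and Exosc10 was called higher with tazemetostat. Exosc3, a cap subunit of the exosome core that binds RNA and whose protein associates with AID, had 82.6 to 92.1 CPM with valemetostat, 82.2 to 89.6 CPM with tazemetostat and 82.8 to 92.6 CPM with DMSO. These ranges lay almost on top of each other. The log2 fold change was -0.01 ± 0.06 with valemetostat (-0.13 to 0.10; edgeR adjusted p = 0.898) and -0.04 ± 0.06 with tazemetostat (-0.15 to 0.08; 0.652). The call on Exosc3 turned with 1 choice: with the length and GC offset it was lower by -0.18 with either inhibitor (edgeR adjusted p = 0.0025 with valemetostat and 0.00219 with tazemetostat). With 1077 nt its transcript is the shortest of the 9.

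Exosc10, the nuclear exoribonuclease attached to the core, was higher with tazemetostat. It had 123, 116 and 110 CPM with valemetostat, 126, 122 and 121 CPM with tazemetostat, and 105, 114 and 111 CPM with DMSO. The tazemetostat libraries were above all DMSO libraries, and the valemetostat libraries spread over both. The log2 fold change was 0.08 ± 0.05 with valemetostat (-0.02 to 0.18; edgeR adjusted p = 0.211) and 0.16 ± 0.05 with tazemetostat (0.05 to 0.26; adjusted p = 0.0153). Leaving out DMSO 1 (edgeR adjusted p = 0.0796) or tazemetostat 1 (0.0744) ended the tazemetostat call, as did the log2(TPM + 1) scale, where the difference was 0.06 (limma-trend adjusted p = 0.544). For the other exosome subunits, Exosc4 was called higher with valemetostat at 0.27 ± 0.08 (edgeR adjusted p = 0.00966; limma-trend on log2(TPM + 1), 0.151) but not with tazemetostat at 0.14 (0.199). The catalytic subunit gene Dis3 had log2 fold changes of -0.01 with valemetostat and 0 with tazemetostat and was not called. On counts, 1 of the 11 exosome genes tested was called higher and 0 lower in each comparison with DMSO, Exosc4 with valemetostat and Exosc10 with tazemetostat. Of all tested genes, 20.5% were called higher and 18.7% lower with valemetostat, and 19.9% higher and 18.2% lower with tazemetostat. The number of exosome genes called lower depended on the scale. With the length and GC offset, edgeR called 1 higher and 5 lower with valemetostat (Exosc1, Exosc2, Exosc3, Exosc8 and Dis3l, at -0.21 to -0.14), and 1 higher and 3 lower with tazemetostat (Exosc1, Exosc3 and Exosc8, at -0.18 to -0.13). Among all 12580 tested genes, that offset gave 2422 higher and 2412 lower with tazemetostat. On log2(TPM + 1), limma-trend called Exosc1 and Exosc8 lower with either inhibitor and 0 higher.

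Exosc6 was listed at 0 counts and 0 TPM in all 9 libraries and was not tested, while every other core subunit was expressed. All 1326 of its exon bases in GENCODE M21 lie inside exons of Aars on the same strand, and Aars was expressed and tested. If the annotation used for counting, which is not given, has this overlap, reads from the 2 genes cannot be told apart by position. Whether the overlap gave the count of 0 was not tested, and the 0 is not read as absence of Exosc6 RNA.

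Ptbp2, the lowest of the 9 in TPM, was not called with either inhibitor. It had 26 to 27.1 CPM with valemetostat, 26.1 to 29 CPM with tazemetostat and 25.9 to 30.9 CPM with DMSO, with DMSO 1 as the lowest of the 9 libraries. The log2 fold change was -0.12 ± 0.08 with valemetostat (-0.28 to 0.03; edgeR adjusted p = 0.215) and -0.07 ± 0.08 with tazemetostat (-0.23 to 0.09; 0.5). Without DMSO 1 the valemetostat comparison passed (edgeR adjusted p = 0.0497). For this gene the CPM and TPM values ranked the libraries differently. CPM over TPM, which stands for the transcript length that the authors' TPM divide by, was 1.39 in valemetostat 3 and 1.31 in DMSO 1, against 1.64 to 1.91 in the other 7 libraries. DMSO 1 thus had the lowest CPM and, at 20.1, the highest TPM of the 9. For Supt6 the same ratio ran from 4.77, in DMSO 2, to 5.23.

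The 2 paralogues of Ptbp2 differed from it in level. Ptbp1, the form most cell types use, had 342 ± 11.2 TPM with valemetostat, 362 ± 15 TPM with tazemetostat and 378 ± 31.4 TPM with DMSO (SD, n = 3 each), while Ptbp2 had 16.3 ± 2.52 TPM with valemetostat, 15.7 ± 0.35 TPM with tazemetostat and 18.4 ± 1.53 TPM with DMSO. On counts Ptbp1 was not called, with log2 fold changes of -0.02 with valemetostat (edgeR adjusted p = 0.725) and 0.04 with tazemetostat (0.429). Ptbp3 was called lower, at -0.25 ± 0.05 with valemetostat (edgeR adjusted p = 0.000194) and at -0.14 with tazemetostat (0.0262). The tazemetostat call on Ptbp3 was lost with the length and GC offset (edgeR adjusted p = 0.375) and by limma-trend on log2(TPM + 1) (adjusted p = 0.263).

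**Figure D3:**
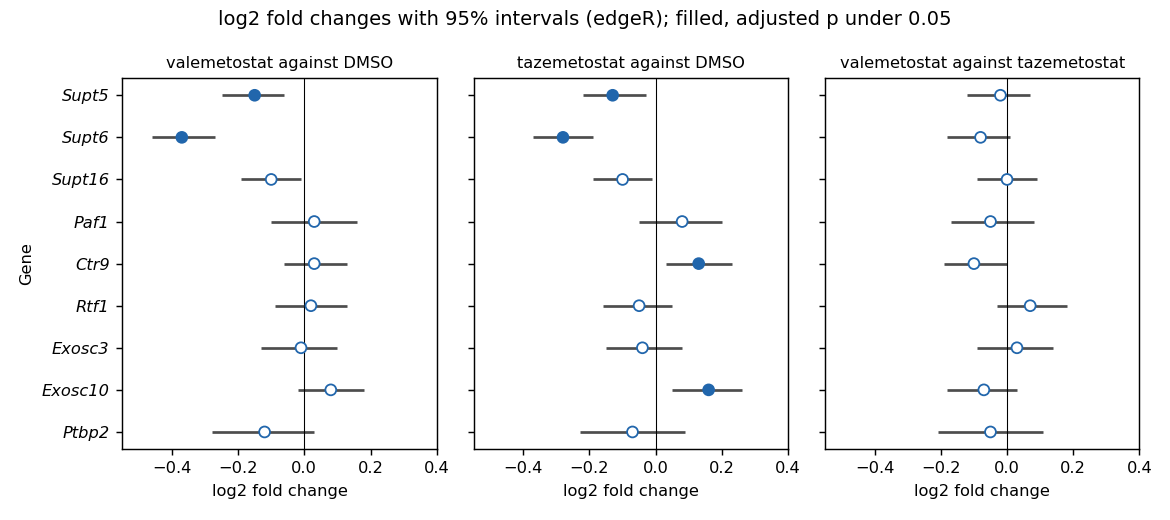
log2 fold changes of the 9 genes (points) with 95% intervals (lines), from edgeR on counts, in one panel per comparison; filled points had an adjusted p under 0.05. Supt6 and Supt5 are filled on the lower side in both inhibitor panels, Exosc10 and Ctr9 on the higher side with tazemetostat, and no point is filled between valemetostat and tazemetostat.

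The inhibitors were then set against each other. Their doses are not given, so the comparison is between the libraries as they were treated and not at a known matched dose. For this 1 pair of compounds, 0 of the 9 genes were called with edgeR, 1 had an unadjusted p under 0.05 (Ctr9), and DESeq2 and limma-trend called 0. Among all tested genes 40 were called, or 0.318%. Ctr9 was lower with valemetostat without overlap, at 107 to 110 CPM against 116 to 117 CPM with tazemetostat, a log2 fold change of -0.10 ± 0.05 (-0.19 to 0.00; edgeR adjusted p = 0.616). Supt6 differed by -0.08 ± 0.05 between valemetostat and tazemetostat (-0.18 to 0.01; edgeR adjusted p = 0.674). The intervals of this difference reached from -0.12 to 0.07 for Supt5, from -0.09 to 0.09 for Supt16, from -0.09 to 0.14 for Exosc3 and from -0.18 to 0.03 for Exosc10. They reached from -0.17 to 0.08 for Paf1, from -0.03 to 0.18 for Rtf1 and from -0.21 to 0.11 for Ptbp2. Differences inside these intervals remain compatible with the data of 3 libraries a group. The missing calls do not show that the inhibitors act alike. An effect called with tazemetostat and not with valemetostat, as for Exosc10 and Ctr9, was therefore not shown to differ between them.

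A wider list of 72 other genes of elongation, the exosome and AID's partners, of which 71 were tested, placed the 9 among their neighbours. With valemetostat 12 of the 71 were called higher and 16 lower, and with tazemetostat 9 higher and 13 lower. Of all tested genes, 39.2% were called with valemetostat (20.5% higher, 18.7% lower). With tazemetostat 38.1% of all tested genes were called (19.9% higher, 18.2% lower). On log2(TPM + 1), limma-trend called 2 higher and 16 lower with valemetostat, and 3 higher and 10 lower with tazemetostat, so the balance of directions depended on the scale. The median log2 fold change was -0.02 in both comparisons, close to that of all tested genes given above. Between valemetostat and tazemetostat 0 of the 71 were called with edgeR, 6 had an unadjusted p under 0.05, and DESeq2 called 0.

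Among the cofactors of the exosome, Zcchc7 was lower with both inhibitors. It encodes the RNA-binding subunit of the TRAMP complex, which marks nuclear RNA for the exosome. It averaged 29.2 ± 1.12 CPM with valemetostat and 31.8 ± 2.61 CPM with tazemetostat, against 48.9 ± 2.08 CPM with DMSO (SD, n = 3 each). Its log2 fold change was -0.74 ± 0.07 with valemetostat (edgeR adjusted p = 4.43e-09) and -0.62 ± 0.07 with tazemetostat (8.5e-08), and both calls held in 20 of 20 alternatives. Of the 10 cofactor genes, 3 were lower and 1, C1d, was higher in each comparison with DMSO. Among all tested genes, 18.7% were lower and 20.5% higher with valemetostat, and 18.2% lower and 19.9% higher with tazemetostat. C1d was at 0.17 with valemetostat (edgeR adjusted p = 0.0354) and 0.22 with tazemetostat (0.00716). The C1d values were 0.03 with valemetostat and -0.03 with tazemetostat on log2(TPM + 1), where neither was called (limma-trend adjusted p = 0.838 with valemetostat and 0.825 with tazemetostat). Tent4b, the poly(A) polymerase of TRAMP, was at -0.24 with valemetostat (edgeR adjusted p = 0.00142) and -0.21 with tazemetostat (0.00399). By limma-trend on log2(TPM + 1) it missed the threshold with valemetostat (adjusted p = 0.0508) and with tazemetostat (0.117).

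P-TEFb and the super elongation complex release paused polymerase. Of their 12 genes, 5 were lower and 2 higher with valemetostat, and 6 were lower and 1 higher with tazemetostat. Among all tested genes, 18.7% were lower and 20.5% higher with valemetostat, and 18.2% lower and 19.9% higher with tazemetostat. On log2(TPM + 1) the counts of the 12 genes were 4 lower and 1 higher with valemetostat, and 2 lower and 0 higher with tazemetostat. Aff1, a scaffold of the super elongation complex, was at -0.53 ± 0.06 with valemetostat (edgeR adjusted p = 3.17e-07) and -0.40 ± 0.06 with tazemetostat (1.66e-05), and both calls held in 20 of 20 alternatives. The related scaffold gene Aff4 was at -0.48 with valemetostat (edgeR adjusted p = 1.59e-06) and -0.36 with tazemetostat (8.62e-05), but limma-trend on log2(TPM + 1) gave adjusted p = 0.121 with valemetostat and 0.599 with tazemetostat. Mllt3, a reader of acylated histones in that complex, was higher at 0.40 with valemetostat (edgeR adjusted p = 3.03e-05) and 0.46 with tazemetostat (4.44e-06), where limma-trend on log2(TPM + 1) gave adjusted p = 0.102 with valemetostat and 0.307 with tazemetostat. Among 8 other elongation factors, 4 were lower with valemetostat and 2 with tazemetostat, and 0 were higher. With the length and GC offset 4 were lower with valemetostat and 5 with tazemetostat, but the 4 were not all the same genes. With valemetostat Cdk13 was then lost (0.03, edgeR adjusted p = 0.655) and Tcea1 was gained (-0.16, 0.00318). Cdk12, the kinase that phosphorylates the polymerase tail during elongation, was lower with valemetostat at -0.32 ± 0.07 (edgeR adjusted p = 0.000628) and had -0.17 with tazemetostat (0.0524). Tcea2, a factor that restarts stalled polymerase, had 2.69 ± 0.225 CPM with valemetostat and 1.92 ± 0.171 CPM with tazemetostat, against 3.47 ± 0.244 CPM with DMSO (SD, n = 3 each). It was called with tazemetostat at -0.86 ± 0.21 (edgeR adjusted p = 0.00199) and not with valemetostat at -0.37 (0.163).

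Among the subunits of RNA polymerase II, Polr2a, the large catalytic subunit whose tail the elongation factors bind, was lower with valemetostat at -0.25 ± 0.05 (edgeR adjusted p = 0.000408) and had -0.09 with tazemetostat (0.204). On counts 4 of the 12 subunits were called higher in each comparison with DMSO, and Polr2a was the 1 called lower, with valemetostat. Among all tested genes, 20.5% were called higher with valemetostat and 19.9% with tazemetostat. With the length and GC offset 0 subunits were called higher in either comparison. Then 1 was called lower in each, Polr2a with valemetostat and Polr2j with tazemetostat. On log2(TPM + 1), limma-trend called 0 higher with valemetostat and 1 with tazemetostat. The higher ones on counts included Polr2g at 0.26 with valemetostat (edgeR adjusted p = 0.00197) and 0.25 with tazemetostat (0.00356). Polr2l was at 0.24 with valemetostat (edgeR adjusted p = 0.0308) and 0.28 with tazemetostat (0.0126).

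Partners of the AID protein were also measured. Ctnnbl1, a splicing-associated protein that binds AID, was at 0.22 with valemetostat (edgeR adjusted p = 0.00179; limma-trend on log2(TPM + 1), 0.0752) and 0.25 with tazemetostat (0.000466). Prkar1a, a regulatory subunit of PKA, was at 0.14 with valemetostat (edgeR adjusted p = 0.00658) and 0.13 with tazemetostat (0.011), and was not called by limma-trend on log2(TPM + 1) (adjusted p = 0.441 with valemetostat and 0.465 with tazemetostat). Rpa1, the large subunit of the single-strand binding protein RPA, was lower at -0.14 with valemetostat (edgeR adjusted p = 0.0127), but not with the length and GC offset (-0.09, 0.0531), and was not called with tazemetostat at -0.08 (0.16).

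**Figure D4:**
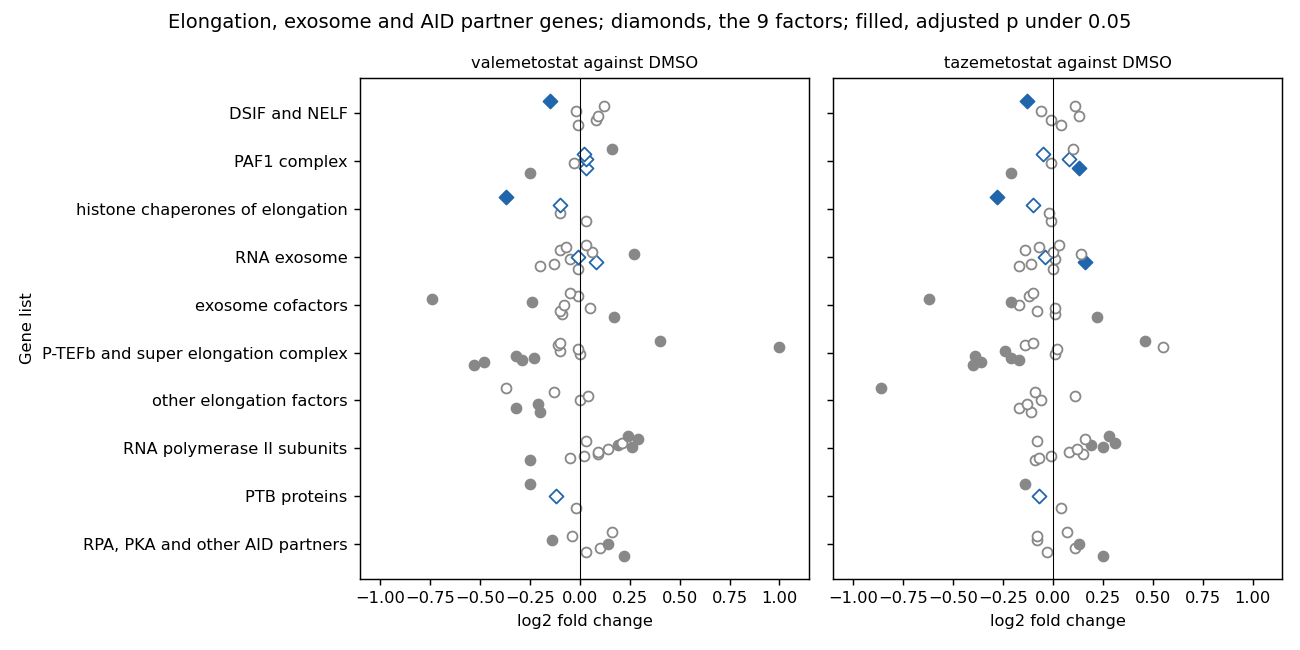
log2 fold changes (horizontal axis) of genes in 10 lists of elongation, exosome and AID partner genes (rows), for each inhibitor against DMSO, without 3 genes that are not reported here; diamonds are the 9 genes, other points the remaining list genes, and filled symbols had an edgeR adjusted p under 0.05. The 9 genes lie between -0.37 and 0.16, inside the span of the other genes, which runs from -0.86 to 1.

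Fold changes in these libraries moved with transcript length, which bears on Supt6, the longest of the 9 at 6488 nt. Over genes of at least 3 log2 CPM that changed under 2-fold, Spearman's rho between length and log2 fold change was -0.42 with valemetostat (8848 genes) and -0.36 with tazemetostat (8852 genes). It was -0.21 between valemetostat and tazemetostat (8947 genes). The trend was not uniform within groups. By library, rho between length and the deviation from each gene's mean was -0.03, -0.01 and -0.44 in tazemetostat 1, 2 and 3. It was -0.45 to -0.24 with valemetostat and 0.21 to 0.48 with DMSO. These are correlations across genes, which share libraries and are not independent replicates. With an offset for length and GC content, the log2 fold change of Supt6 was -0.26 with valemetostat (edgeR adjusted p = 9.32e-07) and -0.19 with tazemetostat (5.37e-05), both nearer to 0 than without it. For Supt5, of 3755 nt, the offset gave -0.13 with valemetostat (edgeR adjusted p = 0.00461) and -0.10 with tazemetostat (0.0294). The calls on Supt6 and Supt5 thus held with the offset at smaller values, that on Exosc3 appeared with it, and those on Cdc73, Polr2g and Polr2l were lost.

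**Figure D5:**
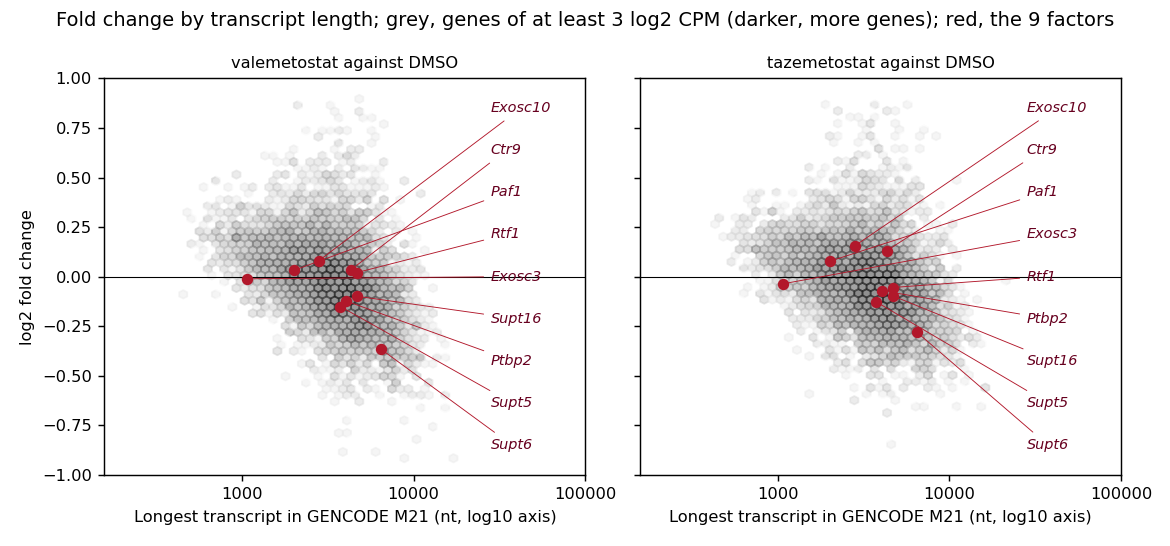
log2 fold change against DMSO (vertical axis) by length of the longest GENCODE M21 transcript (nt, log10 axis), one panel per inhibitor; grey shading counts genes of at least 3 log2 CPM and red points are the 9 genes. The grey cloud slopes down with length (rho -0.42 with valemetostat and -0.36 with tazemetostat), and Supt6 at 6488 nt lies lowest of the red points.

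Across the 9 libraries some of these genes moved together. Pearson's r of log2 CPM, given as a description over 9 libraries that fall into inhibitor and DMSO groups, was 0.86 for Supt5 and Supt6, 0.78 for Supt6 and Supt16 and 0.75 for Exosc10 and Ctr9. The most negative value was -0.63, for Supt5 and Exosc10. Among 8954 genes of at least 3 log2 CPM, Srrm2 (0.995) and Pole (0.994) were most like Supt6, and Itsn1 (0.972) and Tecpr1 (0.969) most like Supt5. For Supt16 they were Nup153 (0.972) and Ppip5k2 (0.961), and for Exosc3 Fdx2 (0.937) and Aplf (0.908). For Exosc10 they were Tmem167 (0.979) and Tmem30a (0.941), and for Paf1 Ciao3 (0.939) and Myg1 (0.922). Ctr9 was closest to Arrdc3 (0.987) and Ppme1 (0.974), and Rtf1 to Ccdc115 (0.966) and Zcchc8 (0.884), an exosome cofactor gene of the wider list. Ptbp2 was closest to Fbxo38 (0.952). The highest of so many values is large by selection, and the genes share depth and group differences.

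The promoters were looked at because Supt5 and Exosc10 are members with calls in opposite directions. The RefSeq table of promoter windows (GRCm38.p6, 250 bases before to 50 after a start) held 9 windows for 8 of the 9 genes, 2 of them for Exosc10. Shown 5′ to 3′ in the direction of transcription is the stretch of each upstream window outside annotated exons, with CpG dinucleotides in capitals. For Supt5 this is chr7:28338805-28338969 on the minus strand, 165 bases with 12 CpG, and for Exosc10 chr4:148558169-148558418 on the plus strand, 250 bases with 13 CpG.
Supt5: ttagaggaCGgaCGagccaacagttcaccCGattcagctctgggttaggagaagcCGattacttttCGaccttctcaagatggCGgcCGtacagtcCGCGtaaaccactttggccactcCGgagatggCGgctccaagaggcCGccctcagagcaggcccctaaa
Exosc10: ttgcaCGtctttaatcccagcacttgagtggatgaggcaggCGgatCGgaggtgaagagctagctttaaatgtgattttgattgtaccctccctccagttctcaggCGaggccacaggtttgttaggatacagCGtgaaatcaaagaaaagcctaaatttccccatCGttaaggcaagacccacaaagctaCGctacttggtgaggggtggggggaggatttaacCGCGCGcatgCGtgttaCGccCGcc
CpG dinucleotides are the sites of DNA methylation. The 9 windows, none of them for Ctr9, held 12 to 38 CpG each, with a median of 28. The median was 7 over all 32851 windows in the table. That table was not limited to genes expressed in these cells, and a comparison with expressed genes alone was not made. Rtf1 had the most with 38, Supt16 had 35, Supt5 28 and Supt6 24, and Exosc3 had the fewest with 12. The letters TATAAA, searched on both strands, were in 0 of the 9 windows, against 13.6% of all windows. CCAAT was in 1 (Paf1; 37.4% of all windows), CACGTG in 1 (Supt16; 7.15%) and CCGGAA in those of Rtf1, Exosc3, Exosc10 and Supt16 (14.9% of all windows). These motifs were searched without regard to overlap between them, and a match describes letters only and says nothing of a factor bound there. The windows of Exosc10 held 19 CpG, in the one shown, and 37, where the upper quartile of all windows was 20.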

How the data were processed

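Poly(A) RNA of 9 libraries was primed with random hexamers for cDNA and read as pairs of 150 nt, per the labels' protocols. The authors deposited whole-number counts per gene and library, and log2 values that are log2(TPM + 1), since 2 to the value minus 1 gives whole hundredths in 100% of values (tolerance 1e-06). Per the submitters' processing notes, the build was mm9. Not given in the sources used here are the aligner, the annotation, the counting program and whether counting used strand. Reads of overlapping genes on opposite strands cannot be told apart.

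Counts were fitted in R 4.3.3 with edgeR 4.0.16 (TMM, robust quasi-likelihood F test, all 9 libraries, 3 groups), after a filter with a minimum count of 10 and total of 15 that kept at least 99.97% of counts. Benjamini-Hochberg adjustment ran over all 12580 genes. Standard errors were obtained by dividing the size of the log2 fold change by the root of the F statistic, and intervals are 95%. limma 3.58.1 and DESeq2 1.42.0 served as alternatives. A floor of 3 counts equals 0.0643 to 0.088 CPM. No replicate pair agreed within sampling noise (chi-square per degree of freedom 5.26 to 13.3). Lengths and GC content come from GENCODE M21, on another build, for 99.79% of tested genes. They entered a spline offset with 5 degrees of freedom per library. Beside the 9 genes, the text names up to 3 called genes with the smallest p per list and the 2 genes most like each of the 9. Supt4a, Ssrp1, Iws1, Leo1, Dis3, Ptbp1, Sdf2, C1d, Rpa1, Nelfe, Polr2j, Exosc1, Exosc2, Exosc8, Dis3l, Cdk13 and Tcea1 were added after their values were seen. Some results of these rules are not reported here. The members and lists were chosen with earlier results of these data known.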

Additional observations from a re-analysis of the deposited data

How the results depend on the processing

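The 27 results on the 9 genes were recomputed under 20 alternatives, 9 of which left out 1 library. Of 540 values, 495 kept their direction and side of the threshold, 18 lost a call, 14 gained one, 0 called values changed sign and 13 uncalled values moved. With log2(TPM + 1) and log2(TPM + 0.1) values, limma-trend called 3123 and 3194 genes with tazemetostat, against 4794, and 13 and 14 of the wider list, against 22. With valemetostat, log2(TPM + 1) gave 18 of the wider list, against 28. Between valemetostat and tazemetostat, where 40 genes were called, DESeq2 called 75, no filter 93, the length and GC offset 80, and log2(TPM + 1) and log2(TPM + 0.1) 1 each. Leaving out 1 library gave 9 to 75 genes there, 9 without valemetostat 2, 10 without tazemetostat 1, 11 without valemetostat 1, 20 without tazemetostat 2 and 75 without tazemetostat 3. It gave 0 to 1 of the wider list (Polr2a without tazemetostat 3, -0.23, edgeR adjusted p = 0.0272) and, with tazemetostat against DMSO, 1 to 4 of the 9 genes. The causes were not tested.

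With the replicate number as a term (replicate block), 2 of the 9 genes were called with valemetostat, 4 with tazemetostat and 0 between the inhibitors, as without it, and 4713, 4527 and 32 of all genes. With the block and the offset together the counts for the 9 genes were 3, 5 and 0. The labels do not say that numbers pair libraries. The correlation of deviations was over 0.1 in 2 of 9 same-numbered pairs (-0.22 to 0.24), and 3 of 9 libraries correlated best with their own number. The standard error of the log2 fold changes against DMSO ran from 0.04 for Supt16 to 0.08 for Ptbp2, the gene with the fewest counts of the 9.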
